A study of Brassica rapa with 36 samples.

Results

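In Brassica rapa microspores, 167 of 47135 gene IDs formed a group that was high after heat shock in the inducible line K2, nearly level between heated and unheated microspores of the non-inducible line 49CX, and low in the K2 embryos. Levels are given as CPM, each count divided by the summed gene counts of its library and scaled to a common total. A heat ratio, H, was taken in each line as log2 of the heated over the unheated mean CPM after 20 CPM was added to both. Members had an H of K2 of at least 2, an absolute H of 49CX under 0.5 and a median over the 9 embryo libraries under 0.25 of the mean of heated K2 microspores. The limit of 200 members was not reached. The members were thus chosen by their own levels in heated and unheated microspores and in embryos, and those levels are described here without a test.

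Microspores are the immature pollen cells, and after a stress such as heat those of some lines leave the path to pollen and divide into haploid embryos, a switch called androgenesis. Heat shock in plants is known for a rapid rise of chaperone genes driven by heat shock transcription factors, most of it brief. The deposited IDs carry no gene names, and 0 of them matched the RefSeq gene table, so the members are known here by level and pattern alone and no function is given to any of them.

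The study has 12 groups of 3 libraries. The K2 groups are 2-, 4- and 8-cell embryos, microspores after heat shock (heated), microspores without it (unheated), late unicellular microspores (late), pollen at flowering, and stalk leaf; the 49CX groups are the same 3 kinds of microspores and stalk leaf. No transgene or agent other than heat is named, and how hot and how long the heat shock was, and how many cells or plants went into a library, is not in the labels. Gene counts ranged from 6021 to 1179935 over the 34 libraries that had any, with a median of 188617. Pollen replicates 2 and 3 held 0 gene counts, which leaves 1 pollen library. The 2 thinnest libraries were embryos: a single count is worth 166 CPM in 2-cell replicate 3, which had 6021 counts, and 117 CPM in 4-cell replicate 1, which had 8549. Marker genes could not be looked up, so the labelled cell types were not checked against markers.

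The rule passed through 517 IDs with an H of K2 of at least 2, of which 311 also met the limit on 49CX. The embryo condition split these 311 into the 167 members and 144 IDs whose embryo median was not under 0.25 of the heated mean. At the threshold on H of K2, the nearest member had 2.008 and the nearest ID outside 1.996. At the limit on 49CX the nearest absolute values were 0.497 inside and 0.509 outside, and for the ratio of the embryo median to the heated mean they were 0.218 inside and 0.252 outside.

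**Figure D1:**
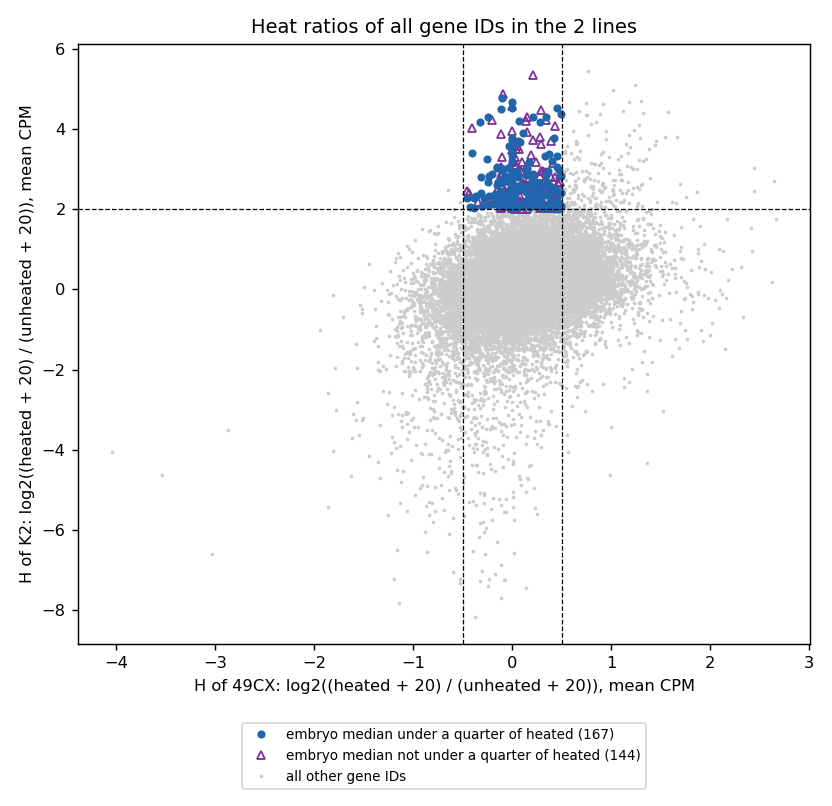
Heat ratio in K2 (vertical axis) against heat ratio in 49CX (horizontal axis), both log2 of heated over unheated mean CPM with 20 added, 1 point per gene ID. The 167 members (filled) and the 144 IDs with higher embryo medians (open triangles) lie in the same strip between the dashed limits, with an H of K2 of at least 2.

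H of K2 ran from 2.01 to 4.76 among the members, with a median of 2.47. It was at least 3 for 36 members and at least 4 for 12. Every heated K2 library stood above every unheated one for 166 of the 167 members, where 18% of all IDs with a count in these libraries did so; the rule used this contrast, so nothing is read from the count. The exception was BraC08g018980.1, singled out after its values were seen, with 8.645, 4.802 and 423.4 CPM in heated K2 and 7.67, 0 and 0 CPM in unheated K2. It was 1 of 3 members in which a single heated library held more than 0.67 of the summed level, and in all 3 that library was heated replicate 3.

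The others, also singled out afterwards, were BraC07g027330.1 and BraC02g024570.1. BraC07g027330.1 had 38.9, 9.604 and 717.1 CPM in heated K2 and no count in the 3 unheated libraries. BraC02g024570.1 had 8.645, 9.604 and 298.1 CPM in heated K2, and 0, 0 and 3.729 CPM in unheated K2. The remaining members were more even, and the median coefficient of variation over the heated libraries was 20.9%.

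As a group the members held 3.72% ± 0.251 of all gene counts in heated K2 microspores, 0.253% ± 0.00493 in unheated and 1.84% ± 0.131 in late ones (SD, n = 3 each). The single libraries gave 3.63, 4.0 and 3.52% with heat, 0.247, 0.255 and 0.256% without, and 1.98, 1.72 and 1.83% at the late stage. The 3 conditions did not overlap, and the late libraries lay between the heated and the unheated ones. That heated lay above unheated was set by the rule, so nothing is read from this order. No single gene carried the heated share, since the 10 most abundant members held 20.4% of it and the others the rest.

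In 49CX the members held 0.375% ± 0.0285 of gene counts in heated, 0.314% ± 0.00503 in unheated and 0.636% ± 0.0474 in late microspores (SD, n = 3 each). Here the late libraries were the highest of the 3 conditions, at 0.689, 0.623 and 0.597%, and the heated ones, at 0.397, 0.386 and 0.343%, all lay above the unheated ones, at 0.319, 0.309 and 0.315%. In these bulk libraries fewer cells of a type and less RNA per cell cannot be told apart. The share of reads that fell in no annotated gene was 63.4% ± 0.964 in heated and 79.9% ± 0.173 in unheated K2 microspores, and 70.4% ± 0.635 in heated and 65.6% ± 5.82 in unheated 49CX microspores (SD, n = 3 each); its part in the members' levels was not tested.

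**Figure D2:**
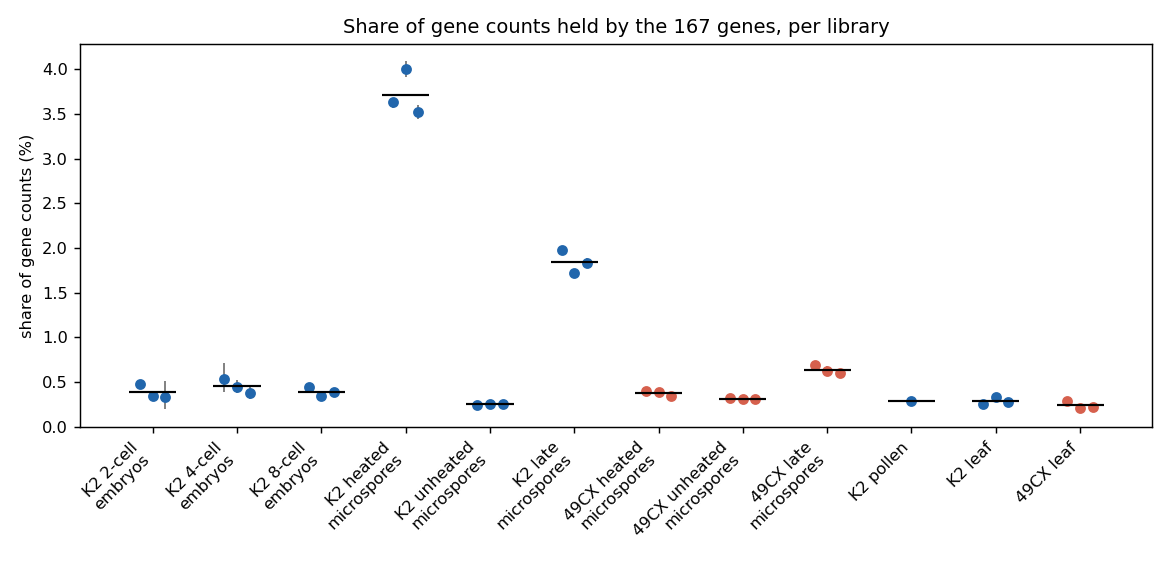
Share of gene counts held by the 167 members (percent, vertical axis) in each library, by group, with 1 point per library, its exact Clopper-Pearson 95% interval as a thin line and the group mean as a bar; blue is K2 and red 49CX. The heated K2 libraries stand between 3.52 and 4.0%, the late K2 libraries between 1.72 and 1.98%, and every other library under 0.7%.

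The 2 members with the largest heat ratios had few counts in the other K2 microspores. BraC03g027070.1, with an H of 4.76, had 590.0, 600.3 and 479.5 CPM in heated K2, and 0, 0 and 3.729 CPM in unheated K2, which is 509 counts against 1. Late K2 had 1.889, 4.615 and 0 CPM, and the heated 49CX libraries had no count. In embryos it had 0, 36.47 and 0 CPM at 2 cells, 0, 0 and 215.7 CPM at 4 cells and 0, 0 and 23.78 CPM at 8 cells, so 1 library of each stage held all its counts there.

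BraC03g047270.1, with an H of 4.66, had 557.6, 561.8 and 501.1 CPM in heated K2, and 3.835, 2.781 and 0 CPM in unheated K2. In late K2 it had 13.22, 27.69 and 13.84 CPM. It had no count in any of the 9 embryo libraries.

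The level at the late unicellular stage, which the rule did not use, divided the members. The late mean was at least 0.5 of the heated mean for 34 members, under 0.25 of it for 118 and between for 15. These classes are cut points on a range, since late levels ran from 0 to 3334 CPM with a median of 14.3 CPM. Every heated library exceeded every late one for 139 members, where 15.2% of all IDs with a count did so. The reverse, every late library above every heated one, held for 20 members, against 12.6% of all IDs. Members were chosen to be high in heated K2, which bears on both counts, so neither is a result about them.

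The 118 members with a low late level held 2.67% ± 0.189 of gene counts in heated, 0.15% ± 0.00879 in unheated and 0.195% ± 0.0106 in late K2 microspores. In 49CX they held 0.243% ± 0.0208 in heated, 0.197% ± 0.00691 in unheated and 0.313% ± 0.0189 in late microspores (SD, n = 3 each). Their median member had 155 CPM in heated, 5.74 in unheated and 5.59 in late K2. Single members departed from this: of the 118, 25 had at least 20 CPM in both heated and unheated 49CX, and BraC01g030020.1, singled out for this, had 250.7, 187.3 and 155.5 CPM in heated K2 and 222.8, 245.2 and 220.2 CPM in late 49CX.

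The 34 members with a high late level followed another course. They held 0.697% ± 0.0294 of gene counts in heated, 0.0516% ± 0.0051 in unheated and 1.52% ± 0.102 in late K2 microspores (SD, n = 3 each). Their median member had 142 CPM in heated, 5.97 in unheated and 242 in late K2. That the unheated share lay below the heated one is set by the rule, and with this sorting a late level above the unheated one follows too. The sorting also favours a late share above the heated one, so nothing is read from the order of these shares. In 49CX the same 34 IDs held 0.0481% ± 0.00537 in heated, 0.0469% ± 0.00514 in unheated and 0.165% ± 0.0116 in late microspores. The closeness of heated and unheated 49CX is set by the rule's limit on H of 49CX. Late 49CX, which the rule did not use, lay above both. The median of these members was 3.6 CPM in heated, 3.72 in unheated and 12.2 in late 49CX. In late 49CX, 3 counts over the group correspond to 9.63 CPM. The 34 were sorted by a high late level in K2, so nothing is read from the late 49CX level either.

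The late mean was at least as high as the heated mean for 23 members, and late K2 was the highest of all 12 groups for 22. BraC01g041330.1, the member with the highest late level and singled out for it, had 903.4, 787.5 and 1110 CPM in heated, 126.6, 86.2 and 96.95 CPM in unheated, and 3866, 3087 and 3049 CPM in late K2. It held 18.1% of the members' summed late level. Across all members, every late library was above every unheated one for 68, where 15.7% of all IDs with a count in these libraries were, and every unheated library was above every late one for 10, against 10.2% of IDs. Members were chosen to be low in unheated K2 relative to heated K2, so nothing is read from these counts.

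**Figure D3:**
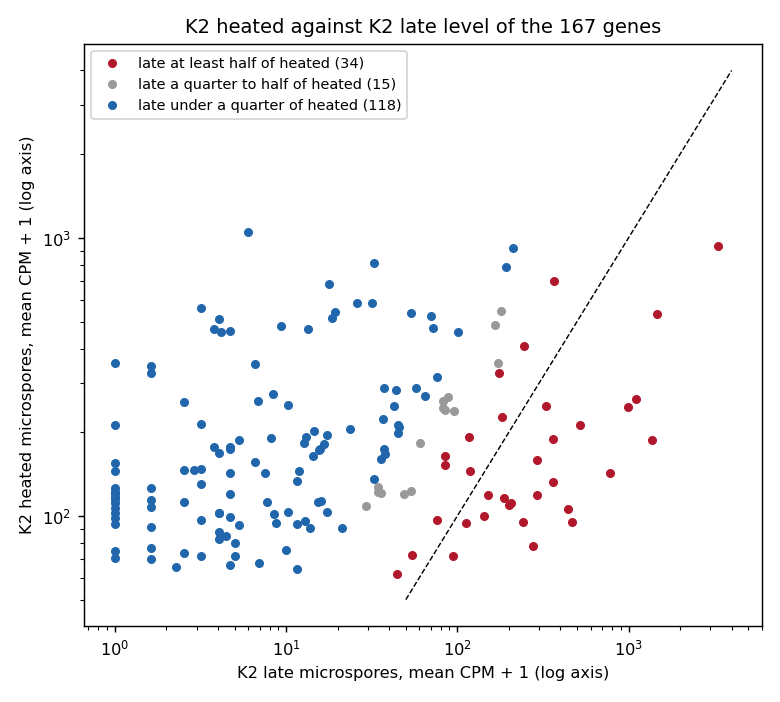
Mean level in heated K2 microspores (vertical axis, CPM + 1, log axis) against mean level in late K2 microspores (horizontal axis, CPM + 1, log axis), 1 point per member, coloured by the ratio of late to heated mean; the dashed line marks equal levels. The 118 members with a late mean under 0.25 of the heated mean fill the left side, and 23 members lie on or right of the line.

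In 49CX the small heat ratio went with low levels for most members and with a similar level in both conditions for others. Heated, unheated and late 49CX means were all under 20 CPM for 97 members, while 41 had at least 20 CPM in both heated and unheated 49CX, and 29 fell between. At least 20 CPM was reached by 28.1% of members in heated, 25.7% in unheated and 40.1% in late 49CX. Of all IDs 21.2, 17.7 and 23.8% did so, so low levels there were not particular to the members. H of 49CX was above 0 for 97 members, below 0 for 51 and exactly 0 for 19, with a median of 0.07. Those 19 had no count in the 6 heated and unheated 49CX libraries.

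In the 9 microspore libraries of 49CX 7 members had no count, where a floor of 3 counts over 1324547 gene counts corresponds to 2.26 CPM. The share of all IDs without a count there was not taken, so the 7 are not read as a trait of the members. Of these, 3 had counts in 49CX leaf and 4 had none in any of the 12 49CX libraries. The 4 were BraC02g041730.1, BraC09g001010.1, BraC05g022090.1 and BraC01g032560.1, named for this after their values were seen, with mean levels of 158.4, 124.6, 73.78 and 60.82 CPM in heated K2. BraC02g041730.1 and BraC01g032560.1 were also present in late K2, at 290.0 and 43.49 CPM, and the others had no count there.

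The 2 members most abundant over heated and unheated 49CX were among those with at least 20 CPM in both. BraC05g015360.1 had 1107, 1167 and 864 CPM in heated and 176.4, 211.3 and 175.3 CPM in unheated K2, and 361.0, 401.0 and 342.8 CPM in heated and 326.2, 241.8 and 217.3 CPM in unheated 49CX. In both lines the heated libraries were above the unheated ones. BraC09g009910.1 had 624.6, 561.8 and 449.3 CPM in heated and 53.69, 77.85 and 100.7 CPM in unheated K2, and 156.7, 185.1 and 185.3 CPM in heated and 186.4, 149.9 and 150.4 CPM in unheated 49CX, where the conditions overlapped.

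In the embryos, whose median level was part of the rule, the members held 0.385% ± 0.0792 of gene counts at the 2-cell, 0.452% ± 0.0818 at the 4-cell and 0.395% ± 0.0461 at the 8-cell stage (SD, n = 3 each). The stages overlapped: the libraries gave 0.476, 0.347 and 0.332% at 2 cells, 0.538, 0.444 and 0.375% at 4 cells, and 0.442, 0.35 and 0.392% at 8 cells. Over all 9 libraries 2793 of 689147 gene counts fell on members, where the mean level of heated K2 would give 25622.

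No count was found in any embryo library for 22 members, which allows a level of up to 4.35 CPM over the 9 libraries, and 98 had an embryo median of 0. The embryo shares were higher than that of unheated K2 in every library, and the summed level was uneven among members. At least 1 embryo library exceeded the mean of heated K2 for 21 members, for 16 of them by more than a single count. Pooled over the 9 libraries, 148 members stayed under 0.25 of the heated mean and 1 was at or above it.

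An embryo stage was the highest of the 12 groups for 5 members, named here after their values were seen. BraC05g010410.1 had 1449, 6.079 and 0 CPM in 2-cell, 233.9, 702.1 and 107.8 CPM in 4-cell and 0, 0 and 7.927 CPM in 8-cell embryos, and 123.2, 100.8 and 108.0 CPM in heated K2. BraC01g001780.1 was highest at the 4-cell stage, with 1170, 31.92 and 0 CPM, the first of which rests on 10 counts, and had 105.9, 57.62 and 138.2 CPM in heated K2.

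BraC06g018690.1 had 0, 516.7 and 0 CPM, and BraC01g008300.1 had 310.9, 0 and 0 CPM, in 2-cell embryos. BraC09g055690.1 had 117.3, 36.47 and 332.2 CPM in 2-cell embryos, the last of which is 2 counts, and 79.96, 81.64 and 142.6 CPM in heated K2. In each of the 5 members a single library carried most of the embryo mean that put the stage first.

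The 144 IDs that met both heat conditions but not the embryo one give the nearest comparison, and since the embryo values divided the sets, no test was made. The median in heated K2 was 154 CPM for members and 144 CPM for the others. In unheated K2 it was 6.26 CPM for members and 4.37 CPM for the others, and in late K2 14.3 CPM for members and 15.2 CPM for the others. The late mean was at least 0.5 of the heated mean for 34 of 167 members and 19 of 144 others. The median K2 leaf level was 2.01 CPM for members and 19.6 CPM for the others, and 41 of the 167 and 71 of the 144 had at least 20 CPM in K2 leaf. For members this is 24.6%, near the 21.2% of all IDs.

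Pollen was represented by a single library, so its values have no replicate check. Members held 0.293% of its gene counts (exact Clopper-Pearson 95% interval 0.263 to 0.326%, counting error only), and 126 members had no count, where 3 counts correspond to 25.4 CPM. At least 20 CPM was reached by 12 members, which is 7.19% of them, against 5.91% of all IDs. For 3 members, named after their values were seen, pollen was the highest group.

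BraC09g072660.1 had 1538 CPM in pollen and 194.5, 360.2 and 267.8 CPM in heated K2, and held 52.4% of the members' pollen counts. BraC10g002900.1 had 388.8 CPM in pollen and 118.9, 201.7 and 142.6 CPM in heated K2. BraC01g018570.1 had 355.0 CPM in pollen and 172.9, 148.9 and 34.56 CPM in heated K2. In 49CX all of these were at 20 CPM or more on average with and without heat.

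**Figure D4:**
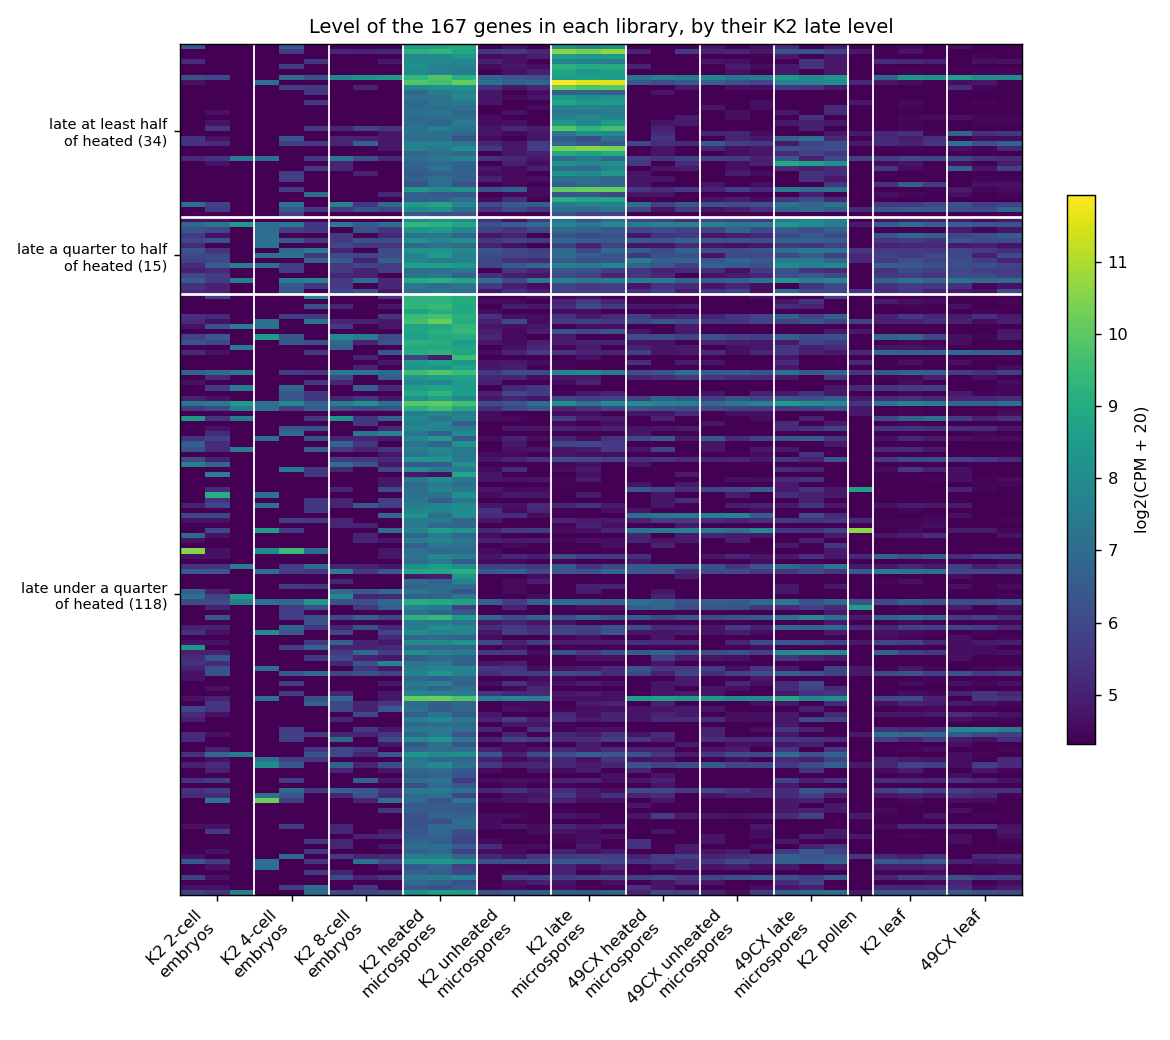
Level of each of the 167 members (rows, log2 of CPM + 20) in each library with gene counts (columns, by group), with rows set by the ratio of late to heated mean in K2. The 34 members of the top block are bright in late as well as heated K2, the 118 of the lowest block in heated K2, and embryo and pollen columns show scattered single bright cells.

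Late microspores and leaf took no part in the rule, and the members were tested there with edgeR's quasi-likelihood test over all genes of each fit, with a gene called at a Benjamini-Hochberg adjusted p under 0.05. The low-count filter kept 158 of the 167 members. A member could pass it through heated K2, which is in none of these contrasts and in which members were chosen to be high. Many that passed had few counts in the libraries compared: with only the 6 compared libraries in the fit, 52 members could be tested in late K2 against late 49CX, 85 in late K2 against K2 leaf, 23 in late 49CX against 49CX leaf and 51 in K2 leaf against 49CX leaf. The shares of members called are therefore given beside those of all genes as counts, and nothing about the members as a group is read from them. Counts under other scalings, filters or sets of libraries are given without the share of all genes called. Nothing about the members is read from those either. The first comparison asks whether the lines already differed in these genes at the late unicellular stage.

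Late K2 differed from late 49CX in both directions. Of the 158 members tested, 35 were higher and 19 lower in late K2, which together is 34.2%, against 32.4% of the 9376 genes tested. Of all genes 16.6% were called higher and 15.8% lower, and the median log2 fold change was -0.01 for members and -0.01 for all genes. With only the 6 late libraries, 28 of 52 members were called higher and 8 lower. The median was then 1.36 for members and 0.02 for all genes. Members could pass the filter of that fit through late K2 alone, so nothing about the members is read from these values.

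BraC01g023020.1 had 423.1, 332.3 and 332.1 CPM in late K2 and no count in late 49CX, at least 37.6-fold higher against a floor of 3 counts over the group (adjusted p = 3.55e-25). BraC02g041730.1, 1 of the 4 members without a count in 49CX, had 321.1, 253.8 and 295.2 CPM in late K2, at least 30.1-fold higher (adjusted p = 1.19e-21). The groups were far apart for both.

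In the other direction, BraC05g015360.1 had 5.666, 4.615 and 4.613 CPM in late K2 and 418.8, 198.5 and 255.5 CPM in late 49CX, a log2 fold change of -5.64 (SE 0.42, adjusted p = 4.78e-31). This is the member most abundant over heated and unheated 49CX; in K2 it was near absent at the late stage and above 100 CPM in both heated and unheated microspores. BraC04g017370.1 had no count in late K2 and 17.82, 35.03 and 17.62 CPM in late 49CX, at least 7.54-fold lower (adjusted p = 0.000688) on 7 counts.

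Late K2 microspores were then set against K2 leaf. Of 158 members tested, 58 were higher and 18 lower in late microspores, together 48.1%, against 51.5% of 11721 genes. Of all genes 24.5% were called higher and 27% lower. The median log2 fold change was 0.9 for members and 0 for all genes. With library sizes alone in place of TMM scaling the median of all genes was 0.44, and 68 members were called higher and 13 lower.

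BraC07g028220.1 had 1131, 867.6 and 959.4 CPM in late K2 and no count in K2 leaf, at least 946-fold higher (adjusted p = 2.37e-39). BraC05g027730.1 had 1039, 1168 and 1102 CPM in late K2 and 0, 0 and 0.8475 CPM, a single count, in K2 leaf (log2 fold change 10.19, SE 0.47, adjusted p = 1.1e-38). In K2, both were thus abundant in late microspores with almost none in leaf.

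Lower in late K2 than in K2 leaf, BraC02g025050.1 had no count in late microspores and 26.65, 31.53 and 33.9 CPM in leaf, at least 9.85-fold lower (adjusted p = 2.84e-09). BraC10g012270.1 had no count in late microspores and 7.461, 10.51 and 19.49 CPM in leaf, at least 4.01-fold lower (adjusted p = 8.16e-05). Both were modest in leaf, where the groups still did not overlap.

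In 49CX the same comparison called 42 members higher and 12 lower in late microspores than in leaf, together 34.2% of 158, against 48.3% of 11721 genes. Of all genes 21.2% were called higher and 27.2% lower. The median log2 fold change was 1 for members and 0.01 for all genes. With library sizes alone the median of all genes was 0.91, and 67 members were called higher and 7 lower. On simulated counts this comparison made more false calls than the others when the simulated libraries took the levels of leaf, so its counts carry more doubt.

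BraC02g024090.1 had 53.46, 58.38 and 35.24 CPM in late 49CX and no count in 49CX leaf, at least 20.8-fold higher (adjusted p = 1.01e-06). BraC09g019260.1 had 26.73, 70.05 and 35.24 CPM in late 49CX and no count in 49CX leaf, at least 18.7-fold higher (adjusted p = 4.18e-05). These rest on 15 and 13 counts in late microspores, the shallowest microspore group.

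BraC06g006560.1 had 26.73, 11.68 and 0 CPM in late 49CX and 197.0, 229.4 and 161.6 CPM in 49CX leaf (log2 fold change -4.8, SE 0.54, adjusted p = 2.09e-13). BraC07g007600.1 had no count in late 49CX and 23.45, 24.25 and 5.704 CPM in leaf, at least 1.85-fold lower (adjusted p = 0.00235). The second bound is small because 3 counts over the late 49CX libraries already correspond to 9.63 CPM.

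Leaf of the 2 lines was compared to see whether the members differed outside microspores. Of 158 members, 15 were higher and 22 lower in K2 leaf, together 23.4%, against 44.3% of 11721 genes, of which 16.2% were higher and 28.1% lower. Leaf levels of members were low, with medians of 2.01 CPM in K2 and 2.54 CPM in 49CX. The median log2 fold change was -0.02 for members and -0.26 for all genes. The split between higher and lower turned with the processing: with library sizes alone it was 22 higher and 16 lower, and the median of all genes 0.16.

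BraC01g040810.1 had 17.05, 18.39 and 8.475 CPM in K2 leaf and no count in 49CX leaf, at least 6.22-fold higher (adjusted p = 0.000378). BraC02g025050.1 had 26.65, 31.53 and 33.9 CPM in K2 leaf and 0, 0 and 1.901 CPM, a single count, in 49CX leaf (log2 fold change 4.44, SE 0.82, adjusted p = 2.74e-06). Among leaf libraries, both were found in K2 with almost none in 49CX. Leaf was not where they were highest: heated K2 microspores had 159.9, 211.3 and 146.9 CPM of BraC01g040810.1, and 335.0, 408.2 and 319.7 CPM of BraC02g025050.1.

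BraC06g006560.1 had 23.45, 15.76 and 20.34 CPM in K2 leaf and 197.0, 229.4 and 161.6 CPM in 49CX leaf (log2 fold change -3.73, SE 0.33, adjusted p = 3.85e-18). BraC08g028290.1 had no count in K2 leaf and 9.379, 1.865 and 7.605 CPM in 49CX leaf, at least 6.03-fold lower (adjusted p = 0.000144). The comparisons share libraries (late K2, late 49CX and both leaf groups each enter more than one), so their calls are not independent of each other.

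The difference between the lines was also compared between tissues, as an interaction added after the data were seen. Among 158 members the log2 difference of K2 over 49CX was higher in late microspores than in leaf for 20 and lower for 11, together 19.6%, against 28.1% of 11721 genes, with 19.7% called higher and 8.39% lower. The median was 0.14 for members and 0.32 for all genes on the log2 scale.

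**Figure D5:**
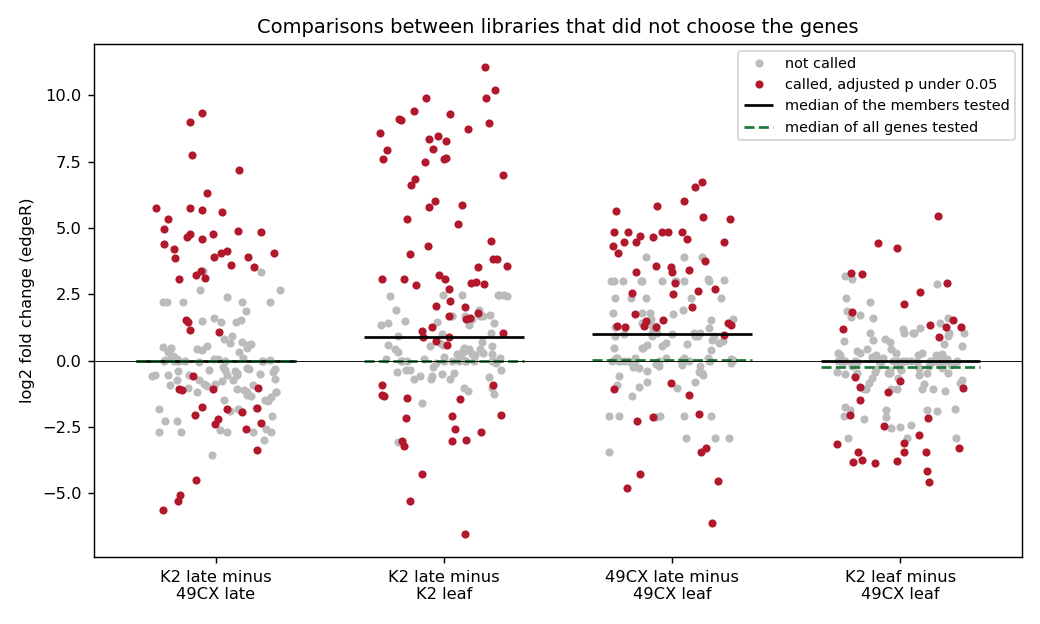
Fitted log2 fold change (vertical axis, edgeR) of the 158 members tested in each of 4 comparisons, 1 point per member, red where the adjusted p is under 0.05; the solid bar is the median of members and the dashed one that of all genes tested. Points reach 9.32 in late K2 against late 49CX and 11.05 in late K2 against K2 leaf; values for genes at 0 in a group depend on the prior count.

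Some members lay next to each other in the files' list of IDs. There were 6 such pairs, which involved 10 members in all. Counts of near-identical copies could have been split or merged by the counting, so such members are uncertain as separate genes. Neighbours did not all share a pattern: BraC02g041730.1 and BraC02g041740.1, singled out for this, had 158.4 and 324.3 CPM in heated K2, and 290.0 and 0.6296 CPM in late K2.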

How the data were processed

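RNA was measured in 36 libraries from lysed cells, made strand-specific per the labels' protocols. The authors deposited 1 table of raw counts per library, unnormalized. Per the submitters' processing notes, the tools were HISAT2, HTSeq, Picard and Trim Galore. Not given in the sources used here are tool versions, strand setting, genome build and annotation. Without the strand setting, reads of a gene and its antisense partner cannot be told apart.

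HTSeq's summary rows stayed out of all totals; reads in no gene made up 53.4 to 85.3% of each of the 34 libraries used. CPM used the summed gene counts. Replicate numbers were taken to name samples only. Same-numbered samples did not deviate together between the groups tested against each other (see the processing alternatives). Heated and unheated microspores were not examined for this. The labels do not tie replicates to separate plants. A p-value therefore reflects the spread of these samples, which may be technical. The closest replicates, late K2 2 and 3, gave p = 0.00258 in a chi-square test over 5483 genes (1.05 per degree of freedom) and were kept as separate libraries.

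Tests used edgeR 4.0.16 (R 4.3.3) with a robust quasi-likelihood fit, TMM, filterByExpr and Benjamini-Hochberg adjustment at 0.05, on the 18 microspore libraries for late against late and on these with the 6 leaf libraries otherwise. edgeR was tested on simulated counts; with both groups at the levels of leaf, late 49CX against 49CX leaf gave many more false calls than the other comparisons, and with both at the levels of late microspores it did not. DESeq2 1.42.0, other scalings and filters, left-out replicates and a replicate block were alternatives. Intervals are exact (scipy 1.17.1), and intervals and floors cover counting error only.

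Genes were named by rule: the 2 members with the largest H, the 2 most abundant in heated and unheated 49CX, those at the thresholds, and per comparison the 2 called members highest and the 2 lowest by fold change that reached a mean of 3 log2 CPM and whose groups did not overlap. Others are marked as chosen after their values were seen. The members and lists were chosen with earlier results of these data known.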

Additional observations from a re-analysis of the deposited data

Results flagged for a closer look

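The difference between K2 and 49CX was not the same in late microspores as in leaf for 31 of the 158 members tested (19.6%), by an interaction term in the edgeR fit, a comparison added after the data were seen. Since heated K2 alone could carry a member past the filter, nothing about the members as a group is read from this share.

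Of the 8 genes named in the 2 comparisons between lines, 4 passed that test. BraC02g041730.1 and BraC04g017370.1 had no count in leaf of either line, so the test could not assess them. BraC05g015360.1 had a log2 line difference (K2 over 49CX) in late microspores minus that in leaf of -5.96 (adjusted p = 4.52e-12), being scarce in late K2 and abundant in late 49CX. BraC08g028290.1 had 4.97 (adjusted p = 0.000245), with no count in K2 leaf. BraC01g023020.1 had 10.08 (adjusted p = 0.0145), with no count in late 49CX. BraC02g025050.1 had -7.44 (adjusted p = 0.0287), with no count in late K2. Fitted values of the last 3 depend on the prior count, since a group is at 0.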

How the results depend on the processing

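Membership depended on the offset: adding 10 CPM gave 254 members, of which 128 were among the 167, and 40 CPM gave 87, of which 71 were. TMM-scaled levels gave 142 members (123 shared), the embryo mean in place of the median 153 (152 shared), pooled embryo counts 151, and leaving out the 2 embryo libraries under 10000 counts 164; the last pair was chosen after seeing the data. Leaving out 1 library at a time gave 158 to 198 members. With a bound of 40 CPM, 25 members were at the bound in heated and unheated 49CX. Called members with 1 library left out were 45 to 52 for late K2 against late 49CX, 67 to 73 for late K2 against leaf, 41 to 52 for late 49CX against leaf, 30 to 40 between leaves and 25 to 31 for the interaction. With only the 6 libraries compared, late 49CX against leaf called 18 of the 23 members then tested, fewer because a member could no longer pass the filter through heated K2. Between leaves the majority turned to higher in K2 with library sizes alone (38 called), no low-count filter (33), only the 6 libraries (17, of 51 tested), and without K2 leaf replicate 1 (30), K2 leaf replicate 3 (39) or 49CX leaf replicate 3 (30); the cause was not tested. Library sizes alone moved the all-gene median of the interaction to -0.12, against 0.32, with 15 members called each way. The replicate block called 53, 74, 53, 37 and 31 members in these comparisons. Same-number correlations between the late and leaf groups compared, -0.154 to 0.035, show no pairing there. All 16 named gene calls kept direction and side of the threshold in all 185 alternatives computed. For the members named by H of K2 or by 49CX level, H of K2 moved by at least its SD over heated libraries in 7 alternatives and reversed in 0. For the counts above and the classes, 112 alternatives stayed within 1.5 times of the reported count and kept its majority. The exceptions among those counts are given here. Depth limits 4-cell embryos and pollen most: 3 counts over the group are worth 39.0 CPM in 4-cell embryos and 25.4 CPM in pollen, against 11.1 CPM or less in the other groups.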
